A study of Mus musculus with 3 samples.

Results

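Blood cells of metastasis-bearing mice labelled Hom were compared with blood cells of metastasis-bearing mice labelled Het, cell type by cell type, to separate gene shifts shared by the cell types from shifts that belonged to one of them. Each label stood for 1 hashed sample, that is, 1 suspension whose cells carried an antibody-bound DNA tag before pooling. Cells were kept where the barcode occurred in 1 of the 3 deposited cell tables only and where at least 0.5 of the cell's hashtag counts came from the hashtags of its own table. This left 1945 of 2784 Hom cells and 2074 of 2973 Het cells, or 4019 of the 5757 cells of the table. Of the cells left out, 796 Hom and 849 Het cells had a barcode that occurred in another table too, and 43 Hom and 50 Het cells fell short on their own hashtags. The comparison then used 1778 Hom and 1906 Het cells in 6 clusters of the authors' clustering, out of 16328 cells deposited for the whole series.

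The Hom and the Het mice were females aged 2 to 3 months on a C57Bl/6 background. Both groups had received E0771 cells, a mouse breast cancer line, into the carotid artery about 2 weeks before collection, a route that seeds tumour cells in the brain. The labels list Cx3cr1-/-, Cx3cr1+/-, CCR2-/- and CCR2+/- animals for the library as a whole and do not name the gene that Hom and Het refer to. Blood of naive Hom and naive Het mice, 1 hashed sample each, is set beside the metastasis-bearing pair. Whole blood was drawn from the heart, red cells were lysed, and 8 hashed samples were stained with 35 antibodies and run as 1 droplet library with 3' chemistry. The number of animals behind a sample is not given. With 1 sample for each genotype there is no replicate and no test, so every difference below describes these samples and cannot be told apart from a difference between individual mice.

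Cx3cr1 is the receptor of the chemokine fractalkine, and in mouse blood it is known from monocytes, most of all those with low Ly6c, and from natural killer (NK) cells. Ccr2 is the receptor that lets Ly6c-high monocytes leave the bone marrow. In the mouse lines often used to study both receptors, a fluorescent reporter replaces the coding sequence of the receptor, so that a homozygous animal lacks the receptor.

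Which mouse a cell came from rests on its hashtag, so the tag sequences of the 4 blood samples are shown in lower case, 5′ to 3′, from the deposited list of 43 antibody barcodes.
Metastasis-bearing Hom, M-HTO-8: tatagaacgccaggc
Metastasis-bearing Het, M-HTO-6: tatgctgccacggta
Naive Hom, M-HTO-7: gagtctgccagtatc
Naive Het, M-HTO-5: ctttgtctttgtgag
Each tag has 15 bases, and the tags of the metastasis-bearing Hom and Het samples differ at 9 of them. In the median kept cell the table's own hashtags made up 0.975 of the hashtag counts in Hom and 0.961 in Het.

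The kept cells had a median of 4276 unique molecular identifiers (UMIs) in Hom and 3960.5 in Het. The deposited expression values were turned back into corrected counts, the whole-number counts that the authors' depth correction had produced, and these summed to 8652951 in Hom and 9098951 in Het. A level below is a gene's corrected counts per 10000 corrected counts of the same cluster and sample. A log2 ratio is Hom over Het with 1 count added to each sum, and a gene counts as measured where the higher sample has at least 50 corrected counts. A gene can thus enter through its higher sample alone, so counts of genes past a fold are read only beside the share of all measured genes past that fold.

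The 6 clusters carried the markers of the blood cell types. Cluster 0 had 8 of 8 neutrophil markers at least 2-fold above the other clusters, cluster 1 had 8 of 8 B cell markers, cluster 3 had 8 of 8 T cell markers, cluster 7 had 8 of 8 NK cell markers and cluster 6 had 6 of 6 platelet markers. Cluster 2 had 8 of 8 markers of Ly6c-high monocytes and 6 of 8 markers of Ly6c-low monocytes. They are called neutrophil-like, B-like, T-like, NK-like, platelet-like and monocyte-like.

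B-like cells made up a smaller share of Hom blood and monocyte-like cells a larger share. B-like cells were 321 of 1945 Hom cells (16.5%, exact 95% interval 14.9 to 18.2) and 573 of 2074 Het cells (27.6%, 25.7 to 29.6). Monocyte-like cells were 24.8% of Hom cells (22.9 to 26.8) and 15.5% of Het cells (14.0 to 17.2). These 2 clusters moved in opposite directions by amounts that their intervals do not cover. Such intervals are Clopper-Pearson intervals for counting error and leave out the spread between mice. Neutrophil-like cells were 41.5% of Hom cells (39.3 to 43.8) and 38.6% of Het cells (36.5 to 40.7), and the intervals overlapped. T-like cells were 6.79% of Hom and 6.61% of Het cells, and NK-like cells 1.23% of Hom and 1.69% of Het cells. Platelet-like barcodes were few, at 11 in Hom (0.566%, 0.283 to 1.01) and 39 in Het (1.88%, 1.34 to 2.56). Shares are relative, so a larger share of one type goes with a smaller share of another, and the numbers of cells per volume of blood were not measured.

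**Figure D1:**
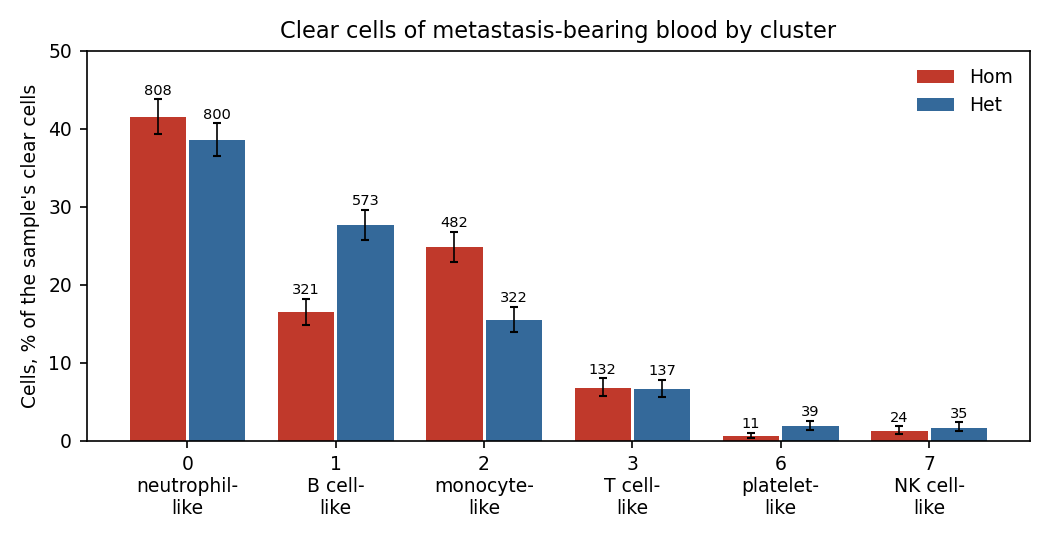
Share of the kept (clear) cells in each cluster (%), with cell numbers above the bars, with the Hom sample left of the Het sample and exact 95% intervals for counting error. B-like cells were 16.5% of Hom and 27.6% of Het cells, and monocyte-like cells 24.8% of Hom and 15.5% of Het cells.

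The antibody gates that came with the cells differed between the samples, and monocyte-like cells inside the NK1.1 gate had far less NK marker RNA than NK-like cells. In the monocyte-like cluster 1 of 482 Hom cells (0.207%, 0.00525 to 1.15) and 224 of 322 Het cells (69.6%, 64.2 to 74.5) were gated as NK1.1-positive, NK1.1 being a surface protein of NK cells. The Ly6C-high gate held 387 Hom cells (80.3%) and 52 Het cells (16.1%) of the same cluster. The Ly6C-low gate held 54 Hom and 13 Het cells, and the gate for Ly6C with Ly6G 21 Hom cells and 1 Het cell. Those numbers add up to the 462 Hom and 66 Het cells gated NK1.1-negative. The Ly6C-high shares of the cluster are thus not separate from the NK1.1 split. RNA of the 8 NK markers summed to a level of 0.0425 in Hom and 0.0766 in Het cells there, with 4 of the 8 at 0 in each sample, against 191 in Hom and 207 in Het NK-like cells. Klrb1c, the gene of NK1.1 itself, was at 0.00916 in the 224 Het cells with the NK1.1 gate and at 12.9 in the Het NK-like cells with it. Those 224 cells had an NK marker level of 0.0825 and an Ly6c2 level of 10.7, and the 66 Het cells gated NK1.1-negative had an Ly6c2 level of 13.6. RNA of the 8 Ly6c-low monocyte markers did differ along the gate, at 11.4 in Het cells gated NK1.1-positive and 3.73 in Het cells gated NK1.1-negative, beside 8.91 in Hom cells gated NK1.1-negative. The median antibody count was 4676 in Hom cells gated NK1.1-negative, against 5838 in Het cells gated NK1.1-positive and 4337.5 in Het cells gated NK1.1-negative. Over the whole cluster the Ly6c2 level was 12.5 in Hom and 10.6 in Het. A higher NK1.1 share in Het was also seen in neutrophil-like cells, with 0 of 808 Hom and 25 of 800 Het cells (3.13%), and in NK-like cells, with 11 of 24 Hom (45.8%) and 32 of 35 Het cells (91.4%). For these reasons the authors' clusters, and not the gates, define the cell types of metastasis-bearing blood here. The naive T-like and NK-like cells set beside them do rest on antibody gates, as they shared a cluster in the naive clustering.

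**Figure D2:**
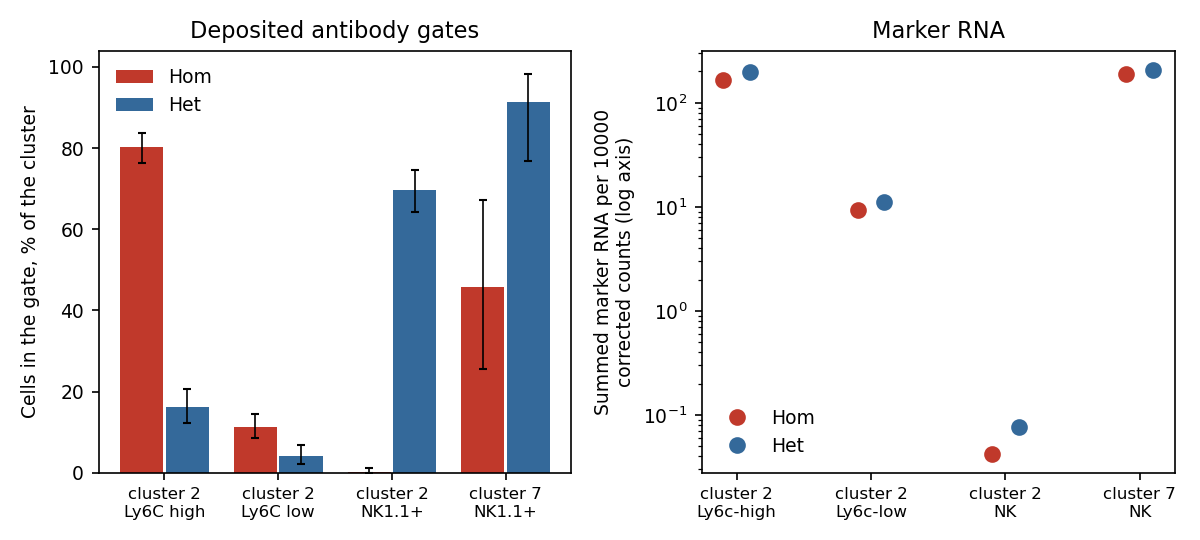
Bars give the share of a cluster's cells inside an antibody gate (%), with exact 95% intervals for counting error, and points the summed marker RNA per 10000 corrected counts, Hom left of Het. The NK1.1-positive gate held 0.207% of Hom and 69.6% of Het monocyte-like cells, while summed NK marker RNA, on the log axis, was at 0.0425 in Hom and 0.0766 in Het. The Ly6C gates together held as many monocyte-like cells as the NK1.1-negative gate, 462 in Hom and 66 in Het.

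The receptor genes were read as a check of the labels. Cx3cr1 (chromosome 9, positions 120048683 to 120068296 of GRCm38) had 65 corrected counts in 55 of 482 Hom monocyte-like cells and 344 in 189 of 322 Het cells. The levels were 0.277 in Hom and 2.20 in Het, a log2 ratio of -2.97, and the naive pair gave -2.87. Among NK-like cells Cx3cr1 had 3 counts in Hom and 28 in Het, too few to count as measured. Cx3cr1 is not a characteristic gene of the other large clusters, and its levels were 0.495 in Hom and 0.336 in Het neutrophil-like cells and 0.199 in Hom and 0.256 in Het B-like cells. Cx3cr1 was thus lower in Hom past the fold in monocyte-like cells and not past it in neutrophil-like or B-like cells. EGFP, a fluorescent reporter listed among the genes of the table, had 64 counts in Hom and 34 in Het monocyte-like cells. Relative to the cluster totals its log2 ratio was 0.31, under the fold, and lay between -0.58 and 0.39 under the alternatives. In neutrophil-like and B-like cells EGFP had 0 counts in both samples. Ccr2 was at 15.7 in Hom and 17.7 in Het monocyte-like cells, a log2 ratio of -0.17. RFP, the other reporter sequence, had 0 counts in Hom and 22 in Het monocyte-like cells, all 22 in 1 cell.

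No gene was at least 1.5-fold higher, or lower, in all 6 clusters. Of 247 genes measured in all of them, 0 were higher (0%) and 0 lower (0%), and the count stayed at 0 of 350 genes when platelet-like cells were left out and at 0 of 1538 in the 4 largest clusters. By any amount, 8 genes (3.24%) were higher in Hom in all 6 clusters and 10 (4.05%) were lower. The higher ones were Hspa8, Gapdh, Cfl1, Cd52, Actb, Rpl41, Eef2 and H2afz, and the lower ones Srsf5, Limd2, Eif1, Srrm2, Ccnd3, Fth1, Hnrnpf, Hnrnpk, Ddx5 and Pnrc1. Most of these are genes that nearly every cell uses, for the cytoskeleton, translation, glycolysis or RNA splicing. Hspa8, a chaperone of the heat shock family, had log2 ratios of 0.18, 0.28, 0.36, 0.09, 0.55 and 0.52 in clusters 0, 1, 2, 3, 6 and 7. Srsf5, a splicing factor, had -0.25, -0.47, -0.65, -0.23, -1.34 and -0.50 in the same order. Several of these differences were under 25%. In platelet-like cells the ratios of Gapdh, Limd2 and Srsf5 changed sign under some of the alternatives given below.

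Across the 5 leukocyte clusters 1 gene was at least 25% higher in Hom in each and 1 at least 25% higher in Het in each, of 350 measured in all 5 (0.286% each way). The higher one was Lgals1, which encodes galectin-1, a lectin of activated lymphocytes and myeloid cells. Its levels were 0.151 in Hom and 0.102 in Het neutrophil-like cells, 0.887 in Hom and 0.426 in Het B-like cells, and 6.08 in Hom and 4.10 in Het monocyte-like cells. They were 6.96 in Hom and 2.87 in Het T-like cells, and 22.9 in Hom and 12.9 in Het NK-like cells. The log2 ratios were 0.55, 1.06, 0.57, 1.27 and 0.82. In the naive pair Lgals1 did not go one way, with 0.23 in B-like, 0.16 in monocyte-like, -0.53 in T-like and 0.12 in NK-like cells. The lower one was Cirbp, an RNA-binding protein gene known to be induced by mild cold. Its log2 ratios were -0.47, -0.43, -1.15, -0.56 and -0.32, with levels of 0.387 in Hom and 0.862 in Het monocyte-like cells. Naive cells gave Cirbp log2 ratios of 0.58 in neutrophil-like, 0.10 in B-like and -0.38 in T-like cells. Both genes were picked after their values were seen. Each reached all 5 clusters only because a sample just over the minimum of counts sufficed, the other sample being under it. For Lgals1 that sample was Hom in neutrophil-like cells. For Cirbp it was Het in NK-like cells, with 30 counts in Hom and 53 in Het.

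Most genes past the fold were past it in 1 cluster. Of 5144 genes measured in at least 2 clusters, 316 were at least 1.5-fold higher in Hom in 1 cluster, 20 in 2 and 4 in 3. Those 4 were Ifitm1, Lgals1, Vim and Wfdc17. In the lower direction the counts were 373, 19 and 5, and 1 gene was lower in 4 clusters. The 5 were AC149090.1, Cd79a, Hba-a2, Hbb-bs and Hbb-bt, and the gene lower in 4 clusters was Hba-a1, so haemoglobin genes made up 4 of these 6. Haemoglobin counts came largely from single cells. In NK-like cells 99.5% of the Het counts of red cell markers lay in 1 cell, and the Hba-a1 log2 ratio of -7.75 was -1.11 without the highest cell of each sample. In B-like cells 66.9% of the Het Hbb-bs counts lay in 1 cell, and the ratio of -3.24 was -1.95 without it. With all deposited cells in place of the kept ones, the 4 haemoglobin genes were higher in Hom B-like cells, Hbb-bs at 0.87.

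**Figure D3:**
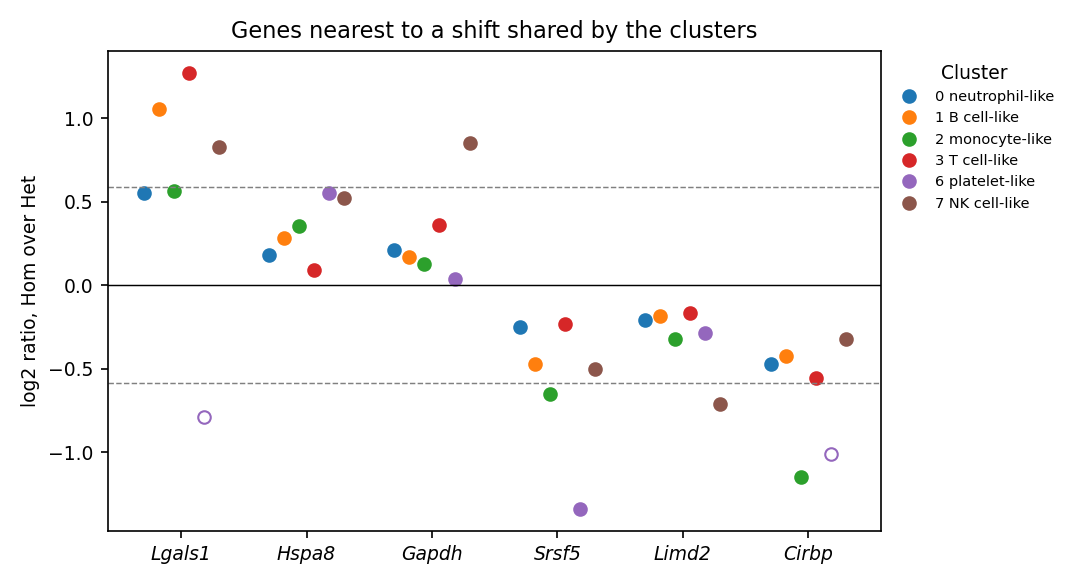
Log2 ratios (Hom over Het) of 6 genes nearest to a shift shared by the clusters, 1 point for each cluster, with dashed lines at 1.5-fold and open points where the gene was not measured. Hspa8 and Gapdh lie above 0 and Srsf5 and Limd2 below 0 in all 6 clusters, yet none of the 6 genes is past the dashed lines in all of them.

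In neutrophil-like cells the interferon response genes were higher together in Hom. In this cluster 4885 genes were measured, 150 (3.07%) at least 1.5-fold higher in Hom and 125 (2.56%) lower, together 5.63%. Of 33 listed genes of the response to type I interferon, the antiviral cytokine family, 24 were measured, 13 were at least 1.5-fold higher and 0 lower. By any amount 23 of the 24 were higher, Ifi204 being the exception at -0.07. The median log2 ratio was 0.60 over the list and 0.02 over all measured genes. Summed over the list, the level was 33.7 in Hom and 20.6 in Het.

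The difference was spread over many cells. The median neutrophil-like cell had 9 corrected counts of the list in Hom (quartiles 4 and 18) and 5 in Het (2 and 10.25), at median depths of 3285 UMIs in Hom and 3110 in Het. At least 10 counts were present in 383 of 808 Hom cells (47.4%, 43.9 to 50.9) and in 214 of 800 Het cells (26.8%, 23.7 to 30.0). No single cell gave more than 1.24% of the Hom sum or 1.85% of the Het sum.

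Ifi27l2a, an interferon-inducible mitochondrial membrane protein gene, was the most abundant of the 13, with a level of 9.54 in Hom and 4.60 in Het and counts in 434 of 808 Hom and 290 of 800 Het cells (log2 ratio 1.05). The Ifit genes encode proteins that bind foreign RNA. Ifit3 was at 0.546 in Hom and 0.207 in Het (1.39), Ifit3b at 0.448 in Hom and 0.165 in Het (1.42) and Ifit1 at 0.634 in Hom and 0.300 in Het (1.07). Ifit3 and Ifit3b are near copies, so reads may be split between them. Rtp4, an interferon-induced chaperone, was at 2.61 in Hom and 1.32 in Het (0.98). Isg15, a ubiquitin-like protein attached to other proteins, was at 1.70 in Hom and 0.942 in Het (0.85), and Usp18, the protease that removes it, at 0.246 in Hom and 0.111 in Het (1.13). Rsad2, the antiviral protein viperin, was at 1.09 in Hom and 0.606 in Het (0.84). The other members past the fold were Oas1a and Xaf1 (0.72 each), Slfn5 (0.63), Zbp1 and Cmpk2 (0.60 each). The interferon genes were thus higher together, across effectors and the feedback protease alike.

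**Figure D4:**
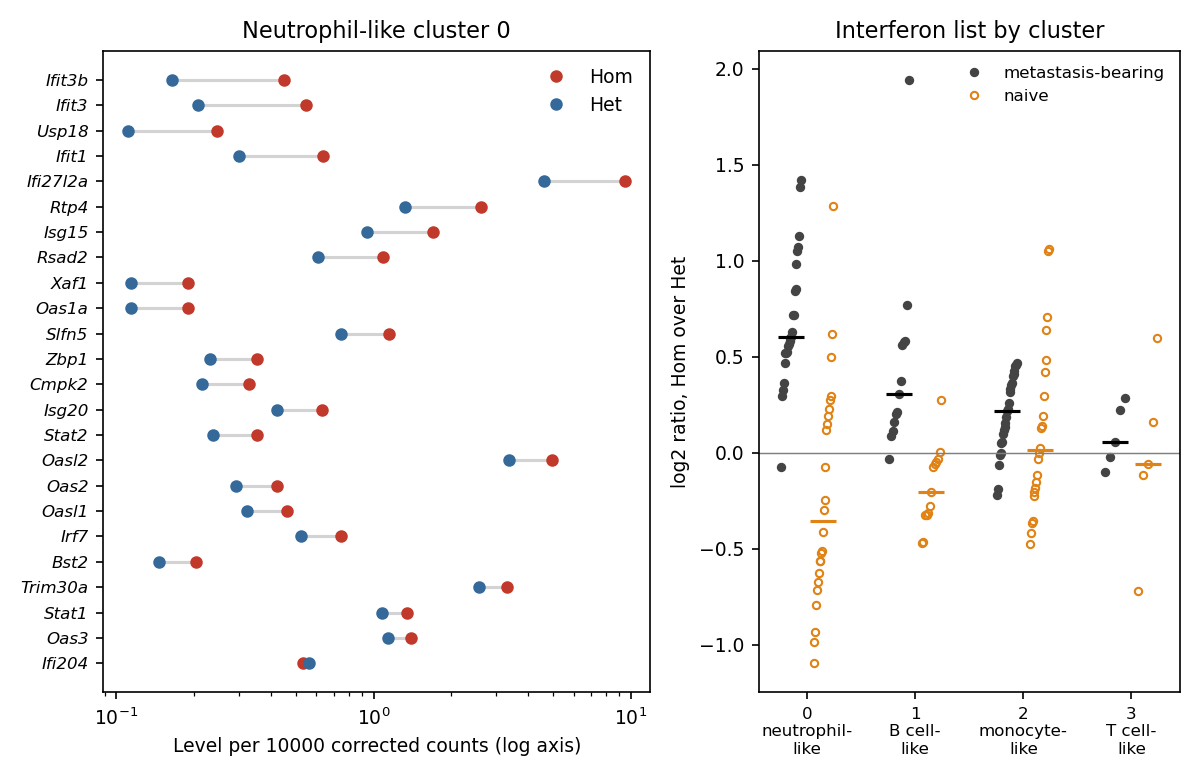
Interferon response genes: levels in Hom and Het neutrophil-like cells (corrected counts per 10000, log axis), and log2 ratios (Hom over Het) of each measured gene by cluster in metastasis-bearing (filled) and naive blood (open), with bars at the medians. In neutrophil-like cells 23 of 24 measured genes were higher in Hom, with a median log2 ratio of 0.60, and the medians in B-like, monocyte-like and T-like cells were 0.31, 0.22 and 0.06.

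The other clusters had smaller medians over the same list. Among B-like cells 13 members were measured, 2 were at least 1.5-fold higher in Hom and 0 lower, beside 1.61% and 2.16% (together 3.77%) of 5512 genes, with a median of 0.31. The 2 were Ifit3, with 64 counts in Hom and 29 in Het, and Ifi213. In monocyte-like cells, where the list level was 48.8 in Hom and 42.8 in Het, 25 were measured and 0 passed the fold either way, with a median of 0.22. Among T-like cells 5 were measured, 0 passed and the median was 0.06. Platelet-like cells had 1 member measured, Ifi27l2a, which was lower past the fold, with 8 counts in Hom and 53 in Het (-0.79), and NK-like cells had 0 measured. Whether the neutrophil-like shift exceeded the others was not tested, as that needs replicate samples.

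Naive neutrophil-like cells did not carry this pattern. Of 24 members measured there, 2 were at least 1.5-fold higher in naive Hom and 7 lower, beside 12% and 6.76% of 4392 genes, and the median was -0.35. Ifit3 was higher in Hom in both pairs (1.28 in the naive pair), while Usp18 (-0.62), Isg15 (-0.41) and Slfn5 (-0.79) were lower in naive Hom.

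Interferon-stimulated genes are known for a promoter element bound by the factor complex ISGF3, and its core was searched as GAAA, any 2 bases and GAAA again on both strands, overlaps allowed, in the 250 bases before each start in RefSeq GRCm38.p6. It was found in 11 of 17 measured list genes that have a promoter in that table (64.7%), against 978 of 32851 promoters in all (2.98%). Among list genes past the fold it was found in 7 of 9 (77.8%), and among those under it in 4 of 8 (50%). The other 7 measured genes are not in the table. Stretches of 80 bases from 3 of the promoters show the element, in capitals, where GAAA read on the other strand appears as TTTC.
Ifit1, chr19:34640765-34640844, plus strand: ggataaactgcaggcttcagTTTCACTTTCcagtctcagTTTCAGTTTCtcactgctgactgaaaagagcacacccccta
Ifit3, chr19:34583353-34583432, plus strand: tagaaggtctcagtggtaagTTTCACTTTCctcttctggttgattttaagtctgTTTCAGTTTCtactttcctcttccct
Isg15, chr4:156200837-156200916, minus strand: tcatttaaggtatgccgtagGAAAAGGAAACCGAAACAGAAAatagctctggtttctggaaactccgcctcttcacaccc
The Ifit1 and Ifit3 stretches hold 2 separate elements each, and the Isg15 stretch holds 3 that overlap. A match is a run of letters and shows no binding, and the list was chosen for its known response, so the share describes the list.

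Apart from the interferon list, the largest ratios in neutrophil-like cells included genes of inflammation. Steap4, a metalloreductase induced by inflammatory cytokines, had 783 counts in 303 Hom cells and 188 in 105 Het cells, levels of 2.32 in Hom and 0.564 in Het (log2 ratio 2.04). Npl, an enzyme of sialic acid breakdown, was at 0.519 in Hom and 0.150 in Het (1.77), with counts in 134 Hom and 43 Het cells. Wfdc17 and Ifitm1 were abundant and higher in Hom, at 76.8 in Hom and 42.7 in Het (0.85) and at 59.4 in Hom and 33.8 in Het (0.81). The cysteine protease inhibitors Stfa2 and Stfa3 were higher at 1.33 and 1.35. Naive neutrophil-like cells went the other way for Steap4 (-2.20), Npl (-1.19), Wfdc17 (-1.59), Ifitm1 (-1.22) and Stfa2 (-1.26).

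Several genes of neutrophil granules were lower in Hom. Lcn2, the iron-sequestering protein lipocalin-2, was at 18.6 in Hom and 29.1 in Het (-0.64). Mmp8, neutrophil collagenase, was at 3.93 in Hom and 6.59 in Het (-0.75), Chil3 at 1.40 in Hom and 2.61 in Het (-0.89), and Olfm4 had a ratio of -1.16. Over 20 listed acute-phase and granule genes 18 were measured, 4 were higher (Steap4, Camp, Wfdc17 and Ifitm1) and 4 lower, with a median of -0.02. Of all 4885 genes 3.07% were higher and 2.56% lower. The list as a whole was thus mixed. Camp, an antimicrobial peptide precursor, had its counts in 39 Hom and 32 Het cells, with 42.5% of the Het counts in 1 cell, and Prtn3, a granule protease, had 83.9% of its Hom counts in 1 cell, so that its ratio of 1.44 was -0.95 without the highest cells.

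Further genes at the ends of the neutrophil-like ranking had few counts. Cdk5rap1 had 56 in Hom and 18 in Het (1.57) and Noxred1 55 in Hom and 19 in Het (1.47). On the lower side Slc15a2, a peptide transporter, had 10 counts in Hom and 53 in Het (-2.31), Atad2 22 in Hom and 58 in Het (-1.38) and Cep192 19 in Hom and 50 in Het (-1.37). These counts lay in 8 to 45 cells per sample.

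A gene was said to belong to 1 cluster where it was at least 2-fold different there, within 25% in each other cluster that measured it, and measured in at least 2 others. This held for 31 genes. Neutrophil-like cells had 4, of 10 genes past 2-fold (0.297% of 3365). They were Cmah, a sialic acid hydroxylase, with 165 counts in Hom and 63 in Het (1.36), Ndufb2, a respiratory chain subunit (1.02), Mtch2, a mitochondrial outer membrane protein, with 37 counts in Hom and 93 in Het (-1.32), and Lyl1, a blood cell transcription factor, with 44 counts in Hom and 113 in Het (-1.36). None of the interferon genes met this rule.

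Against the naive pair, which shares no sample with it, the neutrophil-like shifts were mostly not repeated. Of the 150 genes higher in Hom, 103 were measured in naive cells, 11 were past the fold the same way (10.7%, against 11.9% of all 4275 genes measured in both pairs) and 28 the opposite way (27.2%, against 6.20%). Those 11 are 2.16% of the 510 genes higher in naive Hom. Of the 125 lower genes 67 were measured, 4 the same way (5.97%, against 6.20%) and 16 the opposite way (23.9%, against 11.9%). Genes past the fold in metastasis-bearing Hom were thus more often opposite than alike in naive Hom.

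In B-like cells S100a6 and S100a4 were among the genes higher in Hom. S100a6, a calcium-binding protein gene, had a level of 8.79 in Hom and 2.99 in Het (1.56), with counts in 124 of 321 Hom and 186 of 573 Het cells. S100a4 was at 0.825 in Hom and 0.337 in Het (1.29), Ahnak, a large scaffold protein gene, at 1.29 in Hom and 0.570 in Het (1.17), and Bhlhe41, a transcription factor of B-1 cells, at 0.502 in Hom and 0.205 in Het (1.28). Itgb1, the integrin beta 1 chain, was at 0.543 in Hom and 0.256 in Het (1.08). Apart from S100a6, these genes were named after their values were seen, and in the naive pair S100a6 was at 0.29 and Bhlhe41 at -0.30. Ighm, the IgM heavy chain, was at 40.9 in Hom and 33.1 in Het (0.31) and Ighd, the IgD chain, at 11.8 in Hom and 13.9 in Het (-0.23), both under the fold.

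Of the S100 and stefin list 8 genes were measured in B-like cells, 4 higher and 0 lower, beside 1.61% and 2.16% of 5512 genes. The median was 0.54 beside -0.00 over all genes. S100a8 and S100a9, abundant in neutrophils, were 2 of the 4, and the neutrophil marker level in the cluster was 20.8 in Hom and 11.3 in Het. Its part in the S100 values was not tested. S100a6 and S100a4 are not among those markers, but S100a6 was abundant in neutrophil-like cells too, at 75.9 in Hom and 89.3 in Het. S100a4 was at 0.433 in Hom and 0.318 in Het neutrophil-like cells. The antibody gates also differed, with 274 of 321 Hom cells (85.4%) and 553 of 573 Het cells (96.5%) in the B220-positive gate.

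The genes that belonged to B-like cells were 3, of 18 past 2-fold (0.515% of 3494). Ccnd2, a cyclin that drives entry into the cell cycle, was at 0.564 in Hom and 0.171 in Het (1.71), while the cell cycle list had 5 genes measured, 0 past the fold and a median of 0.06. Ccr1, a receptor of inflammatory chemokines, was at 0.853 in Hom and 0.302 in Het (1.49), in 70 Hom and 66 Het cells, and was also higher in naive Hom (1.05). Myadm, a membrane protein gene of haematopoietic cells, was at 0.715 in Hom and 0.267 in Het (1.41). Lower in Hom was Sparc, an extracellular matrix protein gene, with 12 counts in Hom and 53 in Het (-1.23).

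The highest ratios of the B-like cluster rested on 1 cell. Igha, the IgA heavy chain, had 427 counts in Hom and 40 in Het (4.21), with 90.4% of the Hom counts in 1 cell, and without the highest cells the ratio was 0.97. Jchain, which joins IgA and IgM units, had 94.2% of its Hom counts in 1 cell and a ratio of 3.10 that was -0.34 without it. In B-like cells all 89 higher genes were measured in the naive pair, 4 were also higher in naive Hom (Jchain, Ddit4, Ccr1 and Igha; 4.49%, against 0.746% of 5493 genes measured in both pairs) and 0 were lower (against 0.437%). Of the 119 lower genes 113 were measured, 4 were lower in naive Hom, all haemoglobin genes (3.54%, against 0.437%), and 2 were higher, Casp9 and Naaa (1.77%, against 0.746%). Among all 6778 genes measured in naive B-like cells 2.11% were higher and 0.546% lower.

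In monocyte-like cells several of the genes highest in Hom lay in a small number of cells with high Retnla. Of 4902 genes 102 (2.08%) were higher in Hom and 150 (3.06%) lower, together 5.14%. The highest ratio was that of Retnla, a secreted protein of alternatively activated macrophages, with 2446 counts in 18 Hom cells and 11 in 11 Het cells (7.09). At least 10 Retnla counts were present in 12 of 482 Hom cells (2.49%, 1.29 to 4.31) and in 0 of 322 Het cells, where a count of 0 allows a share of up to 0.932% (3 cells of 322) and the exact interval reaches 1.14%. Those 12 cells held 99.8% of the Hom counts of Retnla, 90.8% of Fcrls, 86.5% of Lyz1, 82.7% of C1qc, 78.4% of C1qa and 78.9% of Pltp. Fcrls is a receptor of microglia and C1qa and C1qc encode the complement component of tissue macrophages. The same cells held 0 counts of the microglial genes Tmem119 and P2ry12, 0.0678% of Ly6c2 and 2.95% of Ccr2. They held a smaller part of 2 further genes, with 56.4% of Ecm1 and 11.9% of C4b. The 12 cells were chosen by Retnla itself. In naive blood Retnla was lower in Hom (-1.95).

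A second set was spread over the cluster. F11r, the junctional adhesion molecule JAM-A, had 251 counts in 173 of 482 Hom cells and 43 in 37 of 322 Het cells (1.93), and the 12 Retnla cells held 0.398% of the Hom counts. Wfdc21 had 447 counts in 112 Hom cells and 87 in 32 Het cells (1.76), and Lrg1, an acute-phase glycoprotein, 264 in 113 Hom cells and 64 in 33 Het cells (1.44). The Retnla cells held 0 counts of either. In naive monocyte-like cells Lrg1 was lower in Hom (-3.34). Of the acute-phase list 12 were measured here, with Wfdc21 and Lrg1 higher and Mmp9 lower, beside 2.08% and 3.06% of 4902 genes.

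**Figure D5:**
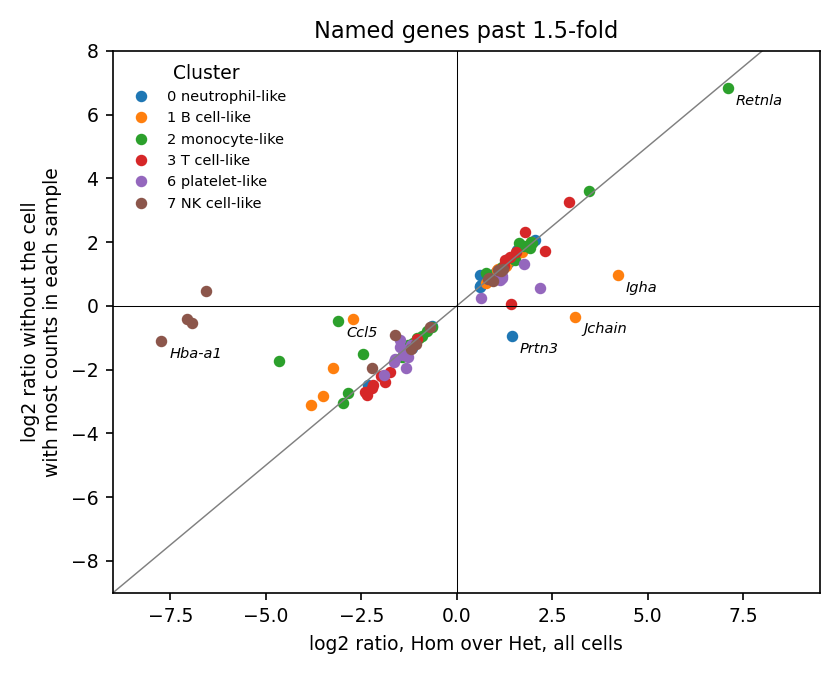
Log2 ratios (Hom over Het) of the 126 named results past 1.5-fold with all kept cells and without the highest cell of each sample. The diagonal marks equal values. Hba-a1 in NK-like cells lies at -7.75 with all cells and -1.11 without the highest, Igha in B-like cells at 4.21 and 0.97, and Retnla in monocyte-like cells at 7.09 and 6.83.

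Lower in Hom monocyte-like cells, besides Cx3cr1, were neutrophil genes and early response genes. The neutrophil marker level was 22.3 in Hom and 44.8 in Het. S100a8 was at 10.4 in Hom and 19.7 in Het (-0.92), Cxcr2, a chemokine receptor of neutrophils, at 0.277 in Hom and 0.671 in Het (-1.27), and Mmp9 had a ratio of -1.42. Both samples thus carried RNA of neutrophil marker genes in this cluster, at a higher level in Het. The source of that RNA and its part in these ratios were not tested. All 18 measured genes of the immediate early list were lower in Hom by some amount, 4 past the fold (Fosb, Jun, Egr1 and Zfp36), with a median of -0.37 beside -0.01 over all genes. Of all 4902 genes 3.06% were lower past the fold. The naive pair gave 16 measured, 0 higher and 4 lower, beside 2.98% and 5.84% of 3016 naive genes, and a median of -0.32. Immediate early genes are known to be switched on within minutes of stimulation.

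MHC class II genes, which present antigen to T cells, were under the fold in metastasis-bearing monocyte-like cells. Of 8 measured, 0 passed it and the median was -0.27, while 7 of 8 were higher in naive Hom (median 1.34), beside 2.98% of 3016 naive genes higher and 5.84% lower. Of 6 measured immunoglobulin constant genes 5 were lower in metastasis-bearing Hom, beside 3.06% of 4902 genes. The B marker level there was 1.40 in Hom and 2.92 in Het. Fkbp5, a glucocorticoid-induced co-chaperone, had a ratio of -0.77. Ccl5, a chemokine of NK and T cells, had a ratio of -3.11, with 86.5% of the Het counts in 1 cell and -0.46 without the highest cells.

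By the rule on ratios 5 genes belonged to the monocyte-like cluster, of 22 past 2-fold (0.635% of 3466). They were Cxcr2, C1qc (1.96), Wfdc21, Zmynd11 (-1.03) and Rnf44, with 41 counts in Hom and 55 in Het. The rule does not concern the level. Wfdc21 was at 1.90 in Hom and 0.556 in Het here, and at 20.7 in Hom and 21.1 in Het neutrophil-like cells. Cxcr2 is a neutrophil marker, and most Hom counts of C1qc lay in the 12 Retnla cells. Unlike the neutrophil-like shifts, part of the lower genes was lower in naive Hom too. Of the 150 lower genes 73 were measured in naive cells, and 21 were lower there past the fold (28.8%, against 5.74% of all 2996 genes measured in both pairs), which is 12.2% of the 172 lower in naive Hom. Among them were Cx3cr1, Cxcr2, S100a8, S100a9, Csf3r, Jun, Egr1, Zfp36, Cd36 and Cd300e. Of the 102 higher genes 34 were measured, 1 was higher in naive Hom (Lyz1, 2.94%, against 2.60% of all) and 10 were lower (29.4%, against 5.74%).

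In T-like cells gamma delta T cell receptor RNA was higher in Hom and B cell RNA was lower. Of 1940 genes 82 (4.23%) were higher and 30 (1.55%) lower, together 5.77%. Tcrg-C1, a gamma chain constant gene, had 51 counts in 16 of 132 Hom cells and 6 in 5 of 137 Het cells (2.95), and Trdc, the delta chain constant gene, 108 counts in 16 Hom cells and 32 in 5 Het cells (1.78). At least 1 count of either was found in 20 Hom cells (15.2%, 9.51 to 22.4) and 8 Het cells (5.84%, 2.55 to 11.2), and of both in 12 Hom and 2 Het cells. The intervals overlapped. Cd8a was at 1.77 in Hom and 2.56 in Het (-0.53), Cd8b1 at 6.49 in Hom and 6.73 in Het (-0.05), and the CD8 antibody gate held 45 Hom (34.1%) and 75 Het cells (54.7%). The CD4 gate held 49 Hom (37.1%) and 50 Het cells (36.5%). More Hom than Het cells lay outside the T cell gates, with 28 Hom and 2 Het cells in the NK1.1-negative gate. The CD8 shares are thus not shares of gated T cells alone. Lef1 and Ccr7, genes of naive T cells, were close, with Lef1 at 0.11 and Ccr7 at -0.04.

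Lower in Hom T-like cells were B cell genes, among them Igkc, the kappa light chain, at 1.39 in Hom and 7.15 in Het (-2.35), Cd74, the MHC class II invariant chain, at 2.45 in Hom and 9.59 in Het (-1.96), and Ebf1, a B cell transcription factor (-2.19). Of 5 measured MHC class II genes 4 were lower (median -1.96) and of 5 immunoglobulin constant genes 4 (median -1.89), beside 0.06 over all genes. Of all 1940 genes 1.55% were lower past the fold. B marker RNA was at 2.32 in Hom and 6.39 in Het. Cells with at least 5 B marker counts numbered 4 of 132 in Hom (3.03%) and 18 of 137 in Het (13.1%), and they held 68.1% of the Hom and 94.5% of the Het Igkc counts. The B cell RNA thus lay mostly in a small number of cells of this cluster. T cell genes were not counted in those cells, and no doublet caller was run.

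Summed counts of most S100 genes were higher in Hom T-like cells. Of 7 measured genes 6 were at least 1.5-fold higher and 0 lower, beside 4.23% and 1.55% of 1940 genes. The median was 0.97. The median T-like cell had 6 counts of the list in Hom and 6 in Het, 17.8% of the Hom sum was in 1 cell and 10 of 132 Hom cells held at least 50% of it. The neutrophil marker level was 11.6 in Hom, with 63.3% of it in 1 cell, and 5.99 in Het, and its part in these values was not tested. S100a6 was at 10.7 in Hom and 3.62 in Het, in 43 Hom and 38 Het cells (1.55), S100a4 at 6.49 in Hom and 3.17 in Het (1.03), and S100a10 at 9.48 in Hom and 6.08 in Het (0.64). Lgals3, the lectin galectin-3, was higher as well (1.40). Naive T-like cells had 0 of 7 higher and 3 lower, with a median of -0.57, beside 3.47% and 1.2% of 2912 genes. S100a8 had 66.8% of its Hom counts in 1 cell, and its ratio of 1.41 was 0.06 without the highest cells.

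Genes that belonged to T-like cells were 6, of 24 past 2-fold (1.35% of 1784). Vps36, a protein of endosomal sorting, had 62 counts in Hom and 27 in Het (1.23), and Casp8ap2 57 in Hom and 27 in Het (1.11). Lower were H2-Eb1 (-2.39) and Ly6d (-1.87), both known from B cells, and Stap1 (-1.13) and Letm2 (-1.04).

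Among NK-like cells, 24 in Hom and 35 in Het, 417 genes were measured, 13 (3.12%) higher and 42 (10.1%) lower, together 13.2%. Genes of cytotoxic proteins were under the fold, with Gzma, granzyme A, at 126 in Hom and 137 in Het (-0.13), Gzmb at -0.14 and Prf1, perforin, at 9.42 in Hom and 13.9 in Het (-0.56). Ccl3 and Ccl4, which encode inflammatory chemokines, were lower in Hom. Ccl3 had 7 counts in Hom and 51 in Het (-2.22), and -0.46 with all deposited cells. Ccl4 had 24 in Hom and 105 in Het (-1.61), 51.4% of the Het counts being in 1 cell, with -0.90 without the highest cells and -0.63 from means of ln values. Ccl5, a further chemokine gene, was under the fold (-0.21). Irf8, a transcription factor of myeloid and NK cells, was at 2.51 in Hom and 5.40 in Het (-1.08). Ccl4, Irf8 and the kinase gene Pak2 (-1.19) were the 3 genes that belonged to this cluster, of 13 past 2-fold (3.35% of 388). Higher in Hom were Ctla2a, a cysteine protease inhibitor (1.21), the chaperone Hsp90ab1, at 11.6 in Hom and 5.15 in Het (1.16), Ccr2, at 4.67 in Hom and 2.17 in Het (1.09, and 0.28 after thinning each cell to 1000 corrected counts), and the inhibitory receptor Klrc1 (0.94).

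Platelet-like barcodes were so few that 25.7% of their 443 measured genes passed 1.5-fold, 9.48% higher and 16.3% lower. Higher in Hom were Thbs1, the platelet protein thrombospondin-1, at 20.7 in Hom and 6.09 in Het (1.77), and Itga2b, the platelet integrin alpha chain, at 30.6 in Hom and 14.0 in Het (1.13). Pf4, platelet factor 4, was at 97.8 in Hom and 63.3 in Het (0.63), while Ppbp, another platelet chemokine, had a ratio of -0.27. With all deposited cells the Pf4 ratio was -0.71. Over the platelet list 7 were measured, 3 higher and 0 lower, with a median of -0.03. The median UMI count of these barcodes was 1418 in Hom and 895 in Het. Their summed neutrophil marker level was 270 in Hom and 217 in Het, so the sums held much RNA of another cell type. All 11 Hom and 39 Het barcodes had some of these counts, but 53.1% of them in Hom and 34.0% in Het lay in 1 barcode. Of 30 genes past 2-fold (7.23% of 415), 10 belonged to this cluster, 9 lower, among them Lamp2 (-1.32), Ctsb (-1.40) and Eif5 (-1.28), and 1 higher, Bin2 (1.13), which was lower (-0.94) among cells with at least 0.8 of their hashtag counts on their own hashtags. Wfdc17 had a ratio of 2.18, with 73.0% of the Hom counts in 1 cell and 0.55 without the highest cells. Lower in Hom were also Ttr, the thyroid hormone carrier of the choroid plexus, at 12.6 in Hom and 35.9 in Het (-1.49), Tmsb10 (-1.65) and Cd74 (-1.63).

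Lists of heat shock, glycolysis, MHC class I and mitochondrial genes had medians within 0.20 of 0 in the 3 larger clusters. Of the heat shock list 8 genes were measured in neutrophil-like, 11 in B-like and 10 in monocyte-like cells, with medians of 0.03, 0.20 and 0.09, with 0, 0 and 1 higher and 0, 1 and 0 lower. The lower one was Dnajb4 in B-like cells (-0.70), where 9 of the 11 were higher by some amount. Of the cold-inducible and clock list 5, 4 and 3 genes were measured, with medians of -0.14, -0.49 and 0.20. All 4 in B-like cells were lower by some amount, Clock past the fold. In monocyte-like cells Clock was higher past the fold (0.59) and Cirbp lower (-1.15). Of all measured genes 5.63% of neutrophil-like, 3.77% of B-like and 5.14% of monocyte-like cells were past the fold either way. The glycolysis and hypoxia list had medians of 0.12, 0.06 and 0.09 and 0 genes past the fold in these 3 clusters. MHC class I genes had medians of 0.01, 0.05 and 0.01, and again 0 past the fold. Mitochondrially encoded genes had medians of 0.19, 0.05 and 0.09.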

How the data were processed

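Whole blood of metastasis-bearing and naive mice was profiled as 1 droplet library with hashtags and antibodies. Reads were processed with Cell Ranger 3.1 and mm10, per the submitters' processing notes, with the roles of other steps not given in the sources used here. The deposited tables hold natural log values, which equal ln(1 + corrected count) with corrected counts from SCTransform, since undoing the log gave whole numbers to within 1.0e-11 and cell sums equal to the deposited totals in 100% of cells. The antibody and hashtag counts, cluster numbers and gates are as deposited by the authors.

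Corrected counts were summed per cluster and sample over kept cells and divided by the cluster total. The 1.5-fold rule, the minimum of 50 counts in the higher sample and the pseudocount of 1 were applied to every gene. Corrected counts lessen differences in depth between cells and are not raw counts, so no count model, interval on a sum or p-value was used. The number of cells limits the precision of shares. Naive cells were set beside clusters by their naive cluster number. For clusters 3 and 7, which shared a naive cluster, the CD3-positive gate and the NK cell gate were used as well. The naive cells were 377 Hom and 795 Het beside cluster 0, 807 Hom and 436 Het beside cluster 1, and 182 Hom and 175 Het beside cluster 2. They were 207 Hom and 106 Het beside cluster 3, 22 Hom and 29 Het beside cluster 6, and 39 Hom and 9 Het beside cluster 7. Doublets were not called.

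Named genes were the 5 highest and 5 lowest ratios per cluster, genes with no gene-model number or receptor segment name, up to 4 genes per direction that belonged to a cluster, and the receptors and reporters. Further genes were chosen after their values were seen, and a few genes are not reported here. The cell groups and the 22 gene lists were chosen with earlier results of these data known. Tools were Python 3.11.15, pandas 2.3.3, numpy 2.4.6, scipy 1.17.1 and matplotlib 3.10.9. The script was tested on simulated data. Alternatives were all deposited cells, stricter hashtags, other totals, pseudocounts, minimums, thinning and leaving out single cells.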

Additional observations from a re-analysis of the deposited data

Results flagged for a closer look

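Log2 ratios of Hom over Het had opposite signs, both past 1.5-fold, in metastasis-bearing and naive blood for a number of named genes. The 16 listed here are not all of them, as Wfdc17, Ifitm1 and Slfn5 in neutrophil-like cells, given above, were opposite too. The difference between the pairs was not tested. In neutrophil-like cells Steap4 had 2.04 in metastasis-bearing and -2.20 in naive blood, Npl 1.77 in metastasis-bearing and -1.19 in naive blood, and Stfa2 1.33 in metastasis-bearing and -1.26 in naive blood. Usp18 had 1.13 in metastasis-bearing and -0.62 in naive blood, and Lyl1 -1.36 in metastasis-bearing and 0.80 in naive blood. In monocyte-like cells of metastasis-bearing blood the ratios were 7.09 for Retnla, 1.91 for Pltp, 1.44 for Lrg1 and -3.11 for Ccl5, and in naive blood they were -1.95 for Retnla, -0.70 for Pltp, -3.34 for Lrg1 and 1.66 for Ccl5. The haemoglobin genes there had -2.46 (Hba-a2), -2.86 (Hbb-bs) and -4.66 (Hbb-bt) in metastasis-bearing blood, and 6.08 (Hba-a2), 5.78 (Hbb-bs) and 4.70 (Hbb-bt) in naive blood. In metastasis-bearing monocyte-like cells 61.0% of the Hom and 72.7% of the Het counts of the haemoglobin list lay in 1 cell. Under the alternatives these ratios came as near to 0 as -0.53 (Hba-a2), -0.45 (Hbb-bs) and -1.31 (Hbb-bt), and that of Ccl5 as near as -0.46. S100a8 in T-like cells had 1.41 in metastasis-bearing and -1.02 in naive blood, and Thbs1 in platelet-like cells 1.77 in metastasis-bearing and -0.76 in naive blood. With all deposited cells the S100a8 ratio in metastasis-bearing T-like cells was -0.56. In NK-like cells Ctla2a had 1.21 in metastasis-bearing and -0.84 in naive blood, and Irf8 -1.08 in metastasis-bearing and 0.74 in naive blood.

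Clusters outside the 6 compared ones held cells as well. Cluster 4 had 314 cells, 158 in Hom and 156 in Het, at a median of 1193.5 UMIs in Hom and 933.5 in Het, and was led by Prg4, Alox15, C4b and Hbb-bt. Cluster 5 had 14 cells, 7 in each sample, led by C1qa, Sparc and Tmem119, and cluster 8 had 7 cells, 2 in Hom and 5 in Het, led by Enpp2, Ttr and Ptn. Tmem119 is known from microglia and Ttr from the choroid plexus. In the monocyte-like cluster 224 Het cells lay in the NK1.1-positive gate, against 1 Hom cell.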

How the results depend on the processing

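No paired analysis was possible because each genotype had 1 sample, and leaving out a replicate was not possible for the same reason. Of 1575 values of 175 named ratios under the alternatives, 1376 were counted as the same, 178 as moved and 21 as reversed, in 15 genes in clusters. The 21 were sign changes of ratios past 1.5-fold. Some ratios under the fold changed sign too and are not among the 21. In platelet-like cells Gapdh (0.04) went down to -0.18 and Limd2 (-0.29) up to 0.37. EGFP in monocyte-like cells (0.31) went down to -0.58, and Cx3cr1 in B-like cells (-0.33) up to 0.49. The alternative that leaves out each gene's highest cell and those on 5 and 4 clusters were chosen after seeing the data. No gene passed 1.5-fold in all 6 clusters under the alternatives that kept a minimum, and 5 did, higher in Hom, with none.

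The 31 genes that belonged to 1 cluster became 51 with own hashtags at least 0.8, 18 with a pseudocount of 5, 7 after thinning to 1000 corrected counts per cell, 157 with a minimum of 20 and 66 where the other clusters had to stay within 1.5-fold. With all deposited cells the T-like count of 112 became 172 and the platelet-like count of 114 became 229, and with own hashtags at least 0.8 the platelet-like count was 191. Thinned cells gave 117, 78, 75, 25, 25 and 19 genes past 1.5-fold in clusters 0, 1, 2, 3, 6 and 7, and a minimum of 20 gave 806, 735, 793, 658, 332 and 319. Of the interferon genes in neutrophil-like cells, 11 to 14 were at least 1.5-fold higher, and 6 of 11 measured after thinning, where fewer genes reach the minimum. The cause of the other changes was not tested.

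Among ratios past 1.5-fold, signs changed as follows. All deposited cells gave Hba-a1 0.74, Hba-a2 0.47, Hbb-bs 0.87 and Hbb-bt 1.12 in B-like cells, S100a8 -0.56 in T-like cells, and Cd79a 0.072, Eif5 0.22, Srsf5 0.086 and Pf4 -0.71 in platelet-like cells. Own hashtags at least 0.8 gave Bin2 -0.94 and Pf4 -0.93 there. Means of ln values gave Prtn3 -0.45, Hbb-bs 0.016 in B-like cells and Pf4 -0.12. Without cells above 3 times the median UMI total Camp was -0.70, Prtn3 -1.08 and Jchain -0.60. Without the highest cell Prtn3 was -0.95, Jchain -0.34 and Hba-a2 in NK-like cells 0.48, and thinning gave Cmpk2 -0.092 in neutrophil-like cells. Of 126 named ratios past 1.5-fold, 10 were no longer past it the same way without the highest cells. Depth limits the platelet-like and NK-like clusters, where 443 and 417 genes were measured.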
